A study of Mus musculus and Rattus norvegicus with 96 samples.

Results

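Liver of male F344 rats given vehicle only was embedded in paraffin after 1 of 2 routes, and the 12 libraries made from it are described here. In the FFPE group the tissue went fresh into 10% neutral buffered formalin, and in the FR > FFPE group it was frozen before the same formalin. Fixation lasted 18 to 24 h in both groups, both were deparaffinized and lysed in the same way, and no RNA was purified from either. The members are set by these labels and by no measured value, as 6 libraries of each group (FFPE replicates 79 to 84 and FR > FFPE replicates 73 to 78) out of the 96 samples of the series. The series as a whole compared ways of preserving tissue for transcriptomics. It also holds 6 libraries of purified RNA from frozen rat liver, which enter only 1 alternative fit. The labels do not say whether 2 libraries came from the same animal or from separate ones, so p-values measure the spread between these libraries. Every difference below is FFPE minus FR > FFPE.

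Expression was measured with TempO-Seq, in which pairs of detector oligonucleotides anneal side by side on an RNA, are ligated there and are then amplified and sequenced. The assay reads short targets, so it can be run on fragmented and crosslinked RNA. The panel covers 2603 genes with 2636 probes. Hepatocytes make up most of the liver and secrete albumin, clotting factors, complement and apolipoproteins, and they clear drugs and bile acids with cytochrome P450 enzymes, conjugating enzymes and transporters. Freezing forms ice crystals that break cells open, while formalin links RNA to protein.

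Depth separated the groups completely. FFPE libraries held 139477 (replicate 82) to 889125 counts (replicate 83) with a median of 404596, and FR > FFPE libraries held 2156621 to 3898086. The exact two-sided permutation test of log2 total counts gave p = 0.00216, the smallest that 924 assignments allow, and adjusted p = 0.00433 over 4 library measures. Depth and preparation cannot be told apart in this design. FFPE replicate 82 stood apart, since its log2 CPM correlated at 0.875 to 0.905 with the other FFPE libraries, which correlated at 0.908 to 0.968 among themselves. Intervals from counts would cover counting error only, as the assay has no molecular identifiers in the files.

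FFPE libraries spread their counts over more genes. After every library was thinned at random to 139477 counts, 1307 to 2027 genes reached 5 counts in FFPE (mean 1587 ± 249 SD, n = 6) against 952 to 1147 in FR > FFPE (mean 1058 ± 76.9 SD, n = 6). All 6 FFPE libraries lay above all 6 FR > FFPE libraries (exact permutation p = 0.00216, adjusted p = 0.00433). Within FFPE the deepest library (replicate 83) had the fewest genes and the shallowest (replicate 82) the most, and the part of depth in this result was not tested beyond the thinning. The 10 highest genes of each library took 29.0% to 40.0% of its counts in FFPE and 37.6% to 49.4% in FR > FFPE, which overlapped (exact permutation p = 0.0195, adjusted p = 0.026). Alb, the gene of serum albumin and the highest of the table, alone took 6.94% to 12.2% of the counts in FFPE and 11.3% to 18.8% in FR > FFPE. The spread of libraries around their own group did not differ detectably at full depth (median deviation 0.309 ± 0.121 SD in FFPE and 0.312 ± 0.0635 SD in FR > FFPE on the log2 scale, n = 6 each, exact permutation p = 0.955). At equal depth it was smaller in FFPE by 0.12 on the log2 scale (exact permutation p = 0.00216).

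**Figure D1:**
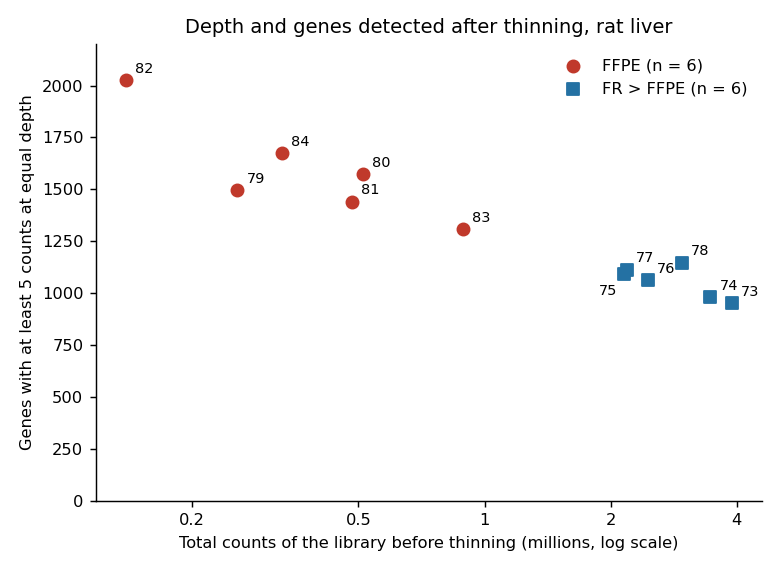
Genes with at least 5 counts after thinning to equal depth (vertical axis) against the total counts of each library before thinning (horizontal axis, in units of 1000000 counts, log scale), with 1 point per library and its replicate number. The 6 FFPE libraries (circles) lie between 1307 and 2027 genes and the 6 FR > FFPE libraries (squares) between 952 and 1147, and no FFPE library is as deep as any FR > FFPE library.

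Abundant hepatocyte genes were lower in FFPE and many genes of few counts were higher. With edgeR's quasi-likelihood test on TMM-scaled library sizes, 32.8% of the 2144 genes tested were DEGs, which needed a 2-fold difference as well as a Benjamini-Hochberg adjusted p below 0.05. In FFPE 471 genes (22%) were higher and 233 (10.9%) were lower, and 1050 genes (49%) passed the adjusted p alone. Groups did not overlap in 301 (14%) that were higher DEGs and 175 (8.16%) that were lower DEGs. The direction depended on scaling. TMM sets the bulk of genes equal and put the median log2 change of all genes at 0.08, whereas plain total counts put it at 0.96, with 988 genes higher (46.1%) and 30 lower (1.4%). Of the genes named below, all 56 that were higher and 18 of 42 that were lower remained DEGs on total counts, and each of the 98 kept its sign. Total counts moved nearly every gene upward, so the rises were all but bound to remain, as all 471 did, and this is no support for them. Changes of gene lists are therefore given relative to the median of all genes.

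The change followed the level of the gene. Genes were ordered by their mean CPM over the 12 libraries and cut into 10 equal groups. In the lowest (4.77 to 12.2 CPM) the median log2 change was 0.97, with 90 genes higher and 5 lower. It was 0.19 in the sixth (51.3 to 76.1 CPM) and −0.79 in the highest, where 1 gene was higher and 78 were lower. Under total counts the same 10 groups ran from 1.83 to 0.07. Scaling moves all genes nearly alike, so the trend had to remain, but the sign did not. In 195 DEGs the 6 FFPE libraries held more counts than the 6 FR > FFPE libraries in sum, although all FFPE counts together were 15.2% of those of FR > FFPE. Some of the genes tested passed the filter on low counts through FFPE alone. Among the 1494 genes above its level of 6.57 CPM in all 12 libraries, 146 were higher and 211 were lower, with a median of −0.22. This level is in CPM of unscaled total counts, unlike the TMM-scaled CPM given elsewhere. For FFPE replicate 82, 1 such CPM is 0.14 counts, so the level does not exclude low counts there. The 111 genes that no FR > FFPE library held at that level included 110 that were higher, which follows from how they passed. Of all 471 higher DEGs, 325 lay below that level in at least 1 FR > FFPE library and depended on FFPE to be tested. Such genes are given below as values without a p, and list counts that hold them are descriptions. List counts are to be read against the 22% of all genes that were higher and the 10.9% that were lower, or 46.1% and 1.4% on total counts. As the change followed level, these shares over all genes do not serve a list of mostly abundant or mostly scarce genes. Whether a list differed from genes of like level was not tested. CPM of different genes also depend on their probes, so a level here ranks signal, not RNA molecules.

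**Figure D2:**
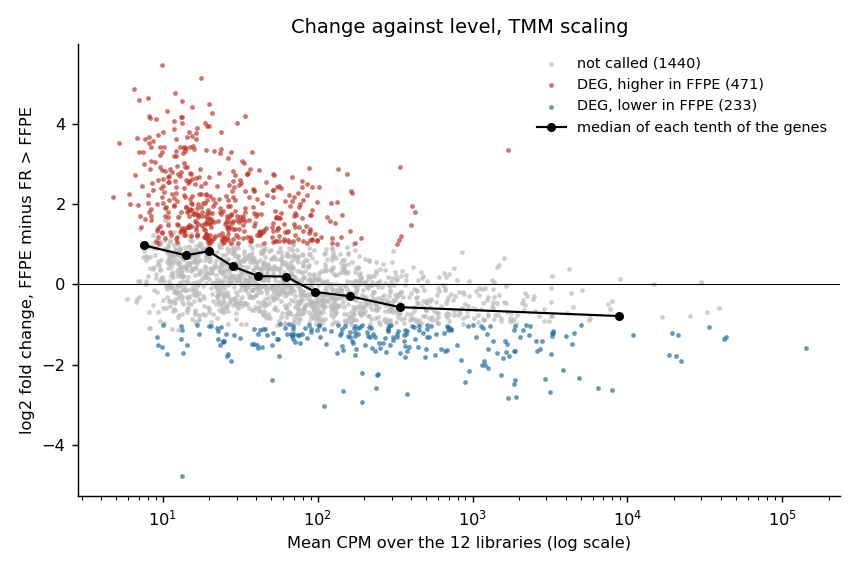
Log2 fold change (FFPE minus FR > FFPE, TMM scaling, vertical axis) against the mean CPM of both groups (log scale, horizontal axis) for 2144 genes, coloured by call. The line joins the medians of 10 equal groups of genes ordered by level, from 0.97 at the lowest to −0.79 at the highest.

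Many plasma protein genes were lower in FFPE relative to all genes. Of 39 genes of plasma proteins and apolipoproteins tested, 18 were lower and 1 was higher, and their median log2 change was −0.92 against 0.08 for all genes. Their median level was 2156 CPM, and the tenth of all genes at 542 CPM or more had a median of −0.79, with 78 of 215 lower. Alb (chromosome 14, 19176277 to 19191864, minus strand, rn6) ran from 34015 to 113950 CPM in FFPE (median 71270) and from 145210 to 308960 CPM in FR > FFPE (median 195760). The groups did not overlap, as in 265 of 2144 genes (12.4%) that were lower, and the log2 change was −1.59 ± 0.29 (SE, adjusted p = 0.000188). Serpina1, which encodes alpha-1-antitrypsin, changed by −1.79 and Ttr, the thyroxine carrier transthyretin, by −1.72. Apoa1, the main protein of high-density lipoprotein, changed by −1.37 and C3, the central component of complement, by −1.31.

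Serping1 (chromosome 3, 72161189 to 72171079, minus strand), the inhibitor of complement C1 and kallikrein, had 130 to 642 CPM in FFPE (median 447) and 2293 to 3982 CPM in FR > FFPE (median 2660). No FFPE library reached any FR > FFPE library, and the log2 change was −2.83 ± 0.30 (SE, adjusted p = 1.15e-06). The log2 change was −2.74 for the pentraxin Apcs and −2.35 for its relative Crp, C-reactive protein. It was −2.37 for Serpinc1, antithrombin, and −2.25 for F5, coagulation factor V. Apom, the apolipoprotein that carries sphingosine 1-phosphate, changed by −2.01. Fga, a fibrinogen chain, had 14739 to 38663 CPM in FFPE and 28856 to 80668 CPM in FR > FFPE, which overlapped (log2 change −0.59 ± 0.30 SE, adjusted p = 0.109). Among plasma proteins A1bg, a glycoprotein of the immunoglobulin superfamily, was the one that was higher (log2 change 1.70), on 4 to 16 counts a library in FFPE, and it lay below the filter level in 5 FR > FFPE libraries. On plain total counts 3 plasma protein genes were lower and 6 higher.

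Drug-metabolizing genes moved in both directions. Of 29 cytochrome P450 genes 8 were lower and 6 were higher (median −0.23), the latter near the share of all genes. Of these 6, 4 depended on FFPE to be tested, and on total counts 3 genes of the list were lower and 10 higher. Cyp3a2 (chromosome 12, 11663683 to 11677831, minus strand), a major hydroxylase of drugs and steroids in male rat liver, had 1244 to 2727 CPM in FFPE (median 1844) against 8502 to 15024 CPM in FR > FFPE (median 10501). The gap left no overlap, and the log2 change was −2.59 ± 0.24 (SE, adjusted p = 3.31e-07). Its neighbour Cyp3a23/3a1 fell by 2.80 on the log2 scale. In both CYP3A genes, and in Cyp2e1 and Serpina1, values that are not whole numbers occurred in all 12 libraries, so their split from near copies is uncertain. Cyp1a2, which oxidizes caffeine and arylamines, fell by 2.12, and Cyp2e1, which oxidizes ethanol, by 1.21. Cyp1a1, the inducible relative of Cyp1a2, went the other way, with 60.9 to 249 CPM in FFPE (median 135) and 18.3 to 31.0 CPM in FR > FFPE (median 25.2). Its log2 change was 2.51 ± 0.30 (SE, adjusted p = 3.36e-06), and it was 2.61 at equal depth (adjusted p = 0.0005). Cyp24a1, which inactivates vitamin D, and Cyp2w1 had log2 changes of 4.07 and 4.02, on 6 to 17 and 8 to 35 counts a library in FFPE and below the filter level in every FR > FFPE library.

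Of 14 conjugating enzyme genes 5 were lower and 1 was higher (median −0.88), and 8 were lower when FFPE replicate 83 was left out. On total counts none was lower and 2 were higher. The higher one was not called when any of FFPE replicates 80, 82, 83 and 84 or FR > FFPE replicates 75, 76 and 77 was left out. The sulfotransferase Sult1b1 fell by 1.78 on the log2 scale, the glucuronosyltransferase Ugt2b37 by 1.48 and the glutathione transferase Gsta2 by 1.15. Ephx1, the microsomal epoxide hydrolase, fell by 2.09. On the sinusoidal membrane Slc10a1, which takes up bile acids, had 162 to 382 CPM in FFPE and 948 to 2591 CPM in FR > FFPE (log2 change −2.43 ± 0.27 SE, adjusted p = 2.08e-06). The organic anion carrier Slco1a1 changed by −1.57. Slco1a4, a paralog of Slco1a1, had 112 to 383 CPM in FFPE against 55.5 to 87.2 CPM in FR > FFPE and rose by 1.72 on the log2 scale, so the transporter list held 4 genes lower and 4 higher of 17 (2 of the latter dependent on FFPE to be tested), and 1 lower and 7 higher on total counts. Of 9 bile acid genes 3 were higher and 1 lower, and all 3 depended on FFPE to be tested. Cyp7a1, the rate-limiting enzyme of bile acid synthesis, had 26.2 to 105 CPM in FFPE and 5.93 to 18.1 CPM in FR > FFPE (log2 change 2.36).

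**Figure D3:**
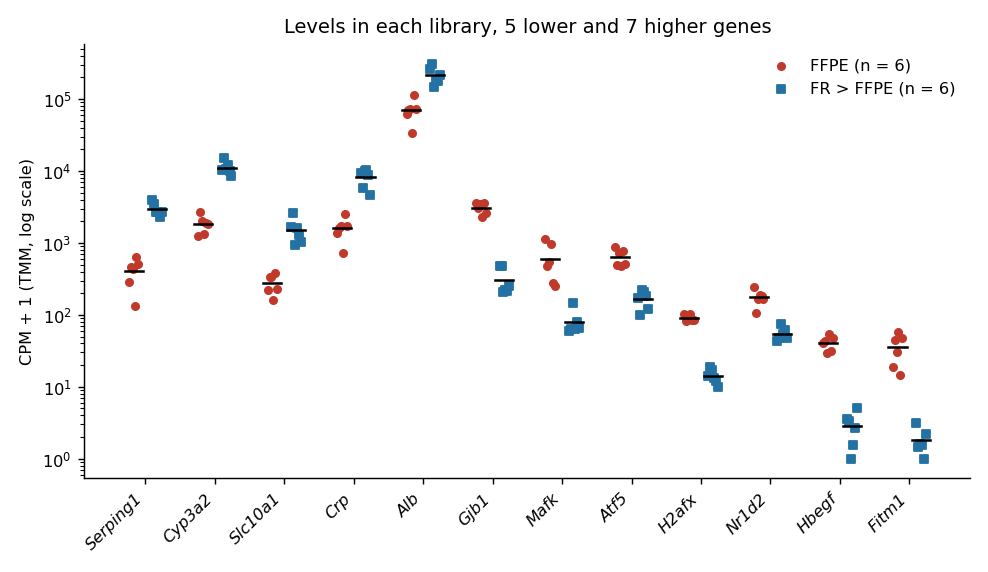
CPM on TMM-scaled library sizes, plus 1 (log scale), of 12 genes in each FFPE library (red circles) and each FR > FFPE library (blue squares), with a bar at the mean of 6. The 5 genes at left are lower in every FFPE library than in any FR > FFPE library, and the 7 at right are higher in every FFPE library.

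A smaller set of abundant genes rose in FFPE. Among 717 genes with a mean of at least 100 CPM, 27 were higher and 165 were lower, and the 10 largest rises without overlap were picked for description after their values were seen. Gjb1, which encodes connexin 32, the gap junction protein of hepatocytes, had 2311 to 3610 CPM in FFPE (median 3259) and 204 to 483 CPM in FR > FFPE (median 236). Every FFPE library exceeded every FR > FFPE library by a wide margin, and the log2 change was 3.34 ± 0.27 (SE, adjusted p = 9.95e-08). FFPE libraries held 10622 Gjb1 counts in sum against 3907 in the deeper group. Mafk, a small MAF protein that pairs with Nrf2, changed by 2.93, and Atf5, a transcription factor of the mitochondrial stress response, by 1.95. Phgdh, the first enzyme of serine synthesis, changed by 2.04. The other 6 were the secreted protein Olfml3 (2.88), the protein kinase A inhibitor Pkig (2.74), the cytokine receptor chain Il2rg (2.41), the lipid kinases Pik3c2a (2.33) and Pip4k2b (2.04) and the phosphatase scaffold Ppp2r1b (2.26). These 6, Mafk and Phgdh were highest in FFPE replicates 79 and 82, the shallowest libraries, while Gjb1 and Atf5 were not. Within FFPE Mafk ran from 251 to 1126 CPM and Il2rg from 66.7 to 320 CPM. The part of depth in these rises was not tested. All 10 were also DEGs in the same direction at equal depth. Scaling in that fit moved changes upward, as described below, so rises were all but bound to remain and this is no support.

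The 12 largest rises among DEGs without overlap and with at least 20 CPM in 1 group rested on few counts. All 12 lay below the filter level in every FR > FFPE library, so that their direction follows from how they passed and only values are given. Fitm1, a lipid droplet protein of skeletal muscle, had 6 to 30 counts a library in FFPE and 0 to 5 in FR > FFPE (13.6 to 56.2 CPM against 0 to 2.09 CPM). Its log2 change was 5.14. Amh, the anti-Müllerian hormone of the gonads, changed by 4.58 on 77 and 12 counts in sum. Synpo2l, a protein of the heart and skeletal muscle, changed by 4.49 on 121 and 20 counts. The brain kinase Camk1g (4.31), the melatonin receptor Mtnr1a (4.17) and the neuronal adhesion gene Kirrel3 (4.16) had 5 to 21 counts a library in FFPE. These genes are known for tissues other than liver. Hbegf, a growth factor of the EGF family, was found at 28.3 to 52.7 CPM in FFPE and 0 to 4.01 CPM in FR > FFPE (log2 change 4.27). The RNA-binding gene Mex3b (4.42), ENSRNOG00000056582 (4.76) and LOC100911204 (log2 change 4.20) completed the list with the P450 genes above. None of these 12 had enough counts to be tested at equal depth.

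Of the 12 largest falls under the same limits, LOC108348085 had an estimated count that rounded to 3 in 1 FFPE library and to 0 in the other 5, against 20 to 78 in the FR > FFPE libraries. Its values were not whole numbers in any of the 12 libraries, it depended on FR > FFPE to be tested, and no fold is given. Car3, a carbonic anhydrase that is abundant in male rat liver, had 1036 to 2870 CPM in FFPE (median 2318) against 9319 to 21968 CPM in FR > FFPE (median 12826), a log2 change of −2.63 ± 0.27 (SE, adjusted p = 1.06e-06). Lpl, lipoprotein lipase, changed by −3.04, S100a6, a calcium-binding protein, by −2.66 and Crip1, a LIM protein, by −2.59. These 3 varied widely among FR > FFPE libraries, where Lpl ran from 44.4 to 374 CPM and S100a6 from 55.3 to 595 CPM.

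The immediate early and DNA damage response lists lay above the median of all genes. Of 19 immediate early genes, the first transcribed after a stimulus, 6 were higher and none was lower (median 0.69, and 17 lay above the median of all genes). Their median level was 31.5 CPM, and the tenth of all genes at 23.8 to 33.6 CPM had a median of 0.45. All 6 lay below the filter level in at least 1 FR > FFPE library and depended on FFPE to be tested. Junb, a subunit of the AP-1 factor, had 49.2 to 57.7 CPM in FFPE and 2.98 to 14.2 CPM in FR > FFPE (log2 change 2.48). The log2 change was 3.62 for Egr2, a zinc finger factor that was below the level in every FR > FFPE library, and 2.84 for Maff, another small MAF protein. DNA damage response genes had 6 of 15 higher and none lower (median 0.58), and 3 of the 6 depended on FFPE to be tested. H2afx (chromosome 8, 48665652 to 48666982, plus strand), the histone marked at DNA breaks, had 82.0 to 102 CPM in FFPE (median 84.7) and 8.83 to 18.0 CPM in FR > FFPE (median 12.7). The groups did not overlap, and the log2 change was 2.75 ± 0.22 (SE, adjusted p = 9.95e-08), and 3.35 at equal depth. The log2 change of Gadd45b, a stress sensor and 1 of these 3, was 2.31. Of 18 apoptosis genes 4 were higher (22.2%, the share of all genes being 22%) and none was lower. They included the caspase-8 inhibitor Cflar (1.79), the survival gene Bcl2 (2.24) and the death gene Bcl2l11 (1.78), of which Bcl2 and Bcl2l11 depended on FFPE to be tested.

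Other stress lists were mixed. Heat shock genes had 2 of 11 higher (1 without FFPE replicate 84), both dependent on FFPE to be tested, and the log2 change of Hspa2, a member of the 70 kDa family, was 2.24. Of 20 genes of the unfolded protein and amino acid responses, 4 were higher (2 of them dependent on FFPE to be tested) and 3 lower, and on total counts 7 were higher and none lower. Sesn2, a sensor of leucine and 1 of these 2, was at 2.20, and the endoplasmic reticulum chaperone Hsp90b1, with 1289 to 2333 CPM in FFPE against 3682 to 5710 CPM, changed by −1.20. Hypoxia and glycolysis genes had 4 of 15 higher, 3 of them dependent on FFPE to be tested, and the fourth was hexokinase 1 (Hk1, 1.92). Nrf2 target and antioxidant genes lay below the median of all genes (median −0.46), with 4 of 24 lower and 1 higher (1 lower and 6 higher on total counts). The count higher was 0 when any of FFPE replicates 80, 82, 83 and 84 or FR > FFPE replicates 75, 76 and 77 was left out, and 2 without FR > FFPE replicate 78. Of 8 genes of formaldehyde metabolism and crosslink repair 3 were higher and 1 lower, of which 2 depended on FFPE and 1 on FR > FFPE to be tested, and 1 was higher without FFPE replicate 82 or without FR > FFPE replicate 73. The lower one was lost without FFPE replicate 81 or FR > FFPE replicate 74 or 78.

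Cytokine and inflammation genes had 10 of 31 higher and 3 lower (median 0.37), and 8 of the 10 depended on FFPE to be tested. Their median level was 24.35 CPM, and the tenth of all genes at 23.8 to 33.6 CPM had a median of 0.45, with 67 of 215 higher. Tnf, tumour necrosis factor, had 24.5 to 93.4 CPM in FFPE against 5.02 to 10.7 CPM in FR > FFPE (log2 change 2.73), with values that were not whole in all 12 libraries. The neutrophil chemokines Cxcl1 and Cxcl2 were at 2.87 and 2.96 on 61 and 62 counts in sum in FFPE. The lower genes included the stromal chemokine Cxcl12 (−1.46) and the NF-kappaB subunits Nfkb1 (−1.51) and Rela (−1.17, but −0.97 without FR > FFPE replicate 74). In the acute phase list 3 of 10 were higher (2 of them dependent on FFPE to be tested) and 2 lower, with 1 lower when any of FFPE replicates 79, 80 and 82 or FR > FFPE replicates 75 and 78 was left out. Lcn2, an iron-scavenging lipocalin, was at a log2 change of 3.43 on 4 to 26 counts a library in FFPE. Orm1, the acid glycoprotein, had 2648 to 5615 CPM in FFPE and 1401 to 7964 CPM in FR > FFPE and did not pass the test (log2 change 0.37 ± 0.34 SE, adjusted p = 0.378).

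Genes of the common cell machinery moved in both directions. Of 10 ribosomal protein genes on the panel 4 were lower and 2 higher (median −0.91), and on total counts none was lower and 2 were higher. Rps27a and Rps6, of the small subunit, changed by −1.41 and −1.25, with values that were not whole in 11 of 12 libraries. The 2 that were higher were Rpl3l, the muscle form of a large-subunit protein that depended on FFPE to be tested (3.31), and Rps27l, a relative of a small-subunit protein (1.51). Rps27l had 91.2 to 120 CPM in FFPE against 30.9 to 46.5 CPM, and its change was 2.17 at equal depth. Among translation initiation factor genes Eif2b3 was lower (−1.24) of 6, and it depended on FR > FFPE to be tested. Of 19 proteasome and ubiquitin genes 3 were higher (1 dependent on FFPE to be tested) and 1 lower (dependent on FR > FFPE), and the number lower was 0 when any FR > FFPE library was left out, 3 without FFPE replicate 81 and 4 without FFPE replicate 83. The respiratory chain had 2 of 11 higher, both dependent on FFPE to be tested, and 2 lower (4 higher and none lower on total counts). Ndufb8, of complex I, had 91.3 to 246 CPM in FFPE against 491 to 667 CPM (log2 change −1.82 ± 0.22 SE, adjusted p = 3.36e-06), and Cox8b, a heart and muscle subunit of complex IV, was at 2.77.

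Lists of fatty acid, glucose and cholesterol metabolism lay below the median of all genes. On total counts none of their genes was lower. Fatty acid synthesis genes had 2 of 14 lower (median −0.57; 4 were lower without FFPE replicate 83, or without FR > FFPE replicate 75 or 78), with Lpin1, a phosphatidate phosphatase, at −1.62 and Srebf1, the lipogenic regulator, at −1.26. Fatty acid oxidation genes had 3 of 31 lower and 2 higher, both dependent on FFPE to be tested (median −0.54; 1 higher without FFPE replicate 82 or FR > FFPE replicate 74), and the number lower was 8 without FFPE replicate 83 and 1 without FFPE replicate 82 or FR > FFPE replicate 73. Cyp4a1, which hydroxylates fatty acids, changed by −1.31. Of 17 genes of gluconeogenesis, the urea cycle and amino acids 3 were lower and none was higher, with 5 lower without FFPE replicate 83. Arg1, arginase of the urea cycle, had 2030 to 4140 CPM in FFPE and 1591 to 5133 CPM in FR > FFPE (log2 change −0.10 ± 0.28 SE, adjusted p = 0.791, with the sign reversed on total counts). Cholesterol synthesis genes had 2 of 14 higher, 1 of them dependent on FFPE to be tested, and 1 lower (none lower without FR > FFPE replicate 74). Nr1d2, the clock repressor REV-ERB beta, was the DEG of 6 clock genes (2 were called without FR > FFPE replicate 78). It had 104 to 244 CPM in FFPE against 41.9 to 73.4 CPM in FR > FFPE (log2 change 1.69 ± 0.22 SE, adjusted p = 8.14e-06), and 2.54 at equal depth. Cell cycle genes had 11 of 33 higher and 1 lower (median 0.49; 20 higher and none lower on total counts), and none was lower when any FR > FFPE library was left out. Of these 11, 3 depended on FFPE to be tested. The kinase Cdk2 changed by 2.17, its activating phosphatase Cdc25a by 2.08 and its partner cyclin Ccne2 by 2.01. All 3 were highest in FFPE replicates 79 and 82, the shallowest libraries, and Cdk2 ran from 56.7 to 199 CPM within FFPE. Of other rises named here, Cyp1a1, Cyp7a1, Maff, H2afx, Nr1d2, Hk1 and Ptprc were also highest in these 2 libraries. Junb, Rps27l and Cflar were not, and the part of depth was not tested.

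**Figure D4:**
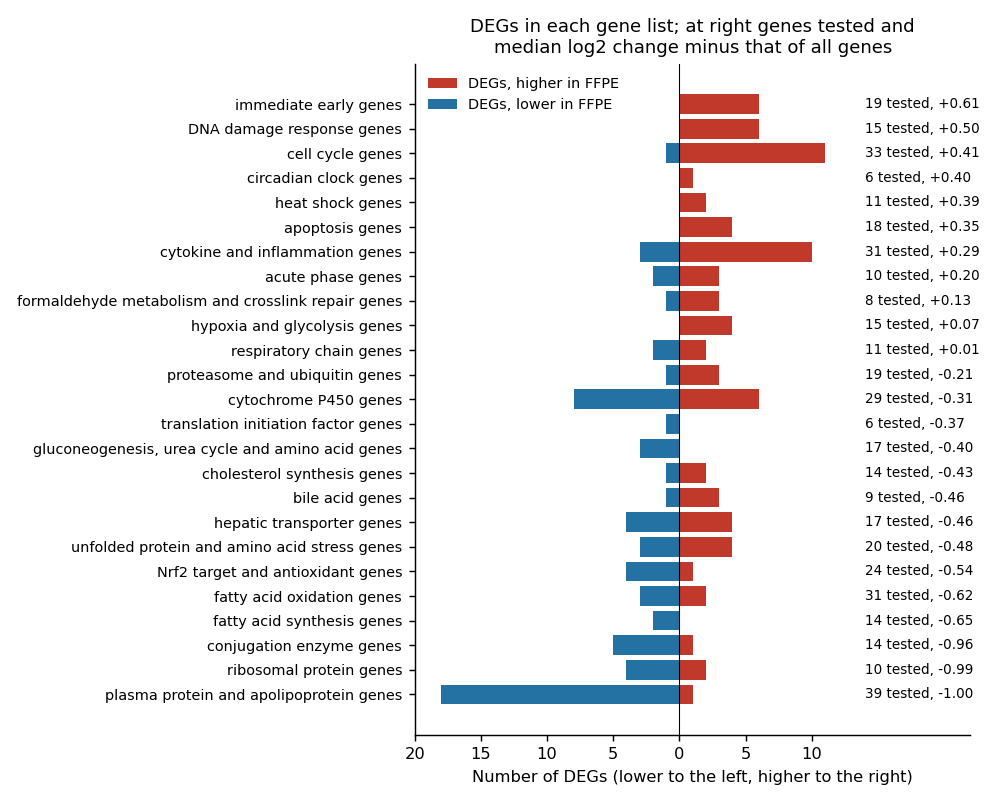
Number of DEGs higher (right) and lower (left) in FFPE in each of 25 gene lists, ordered by the median log2 change of the list minus that of all genes (printed at right with the number tested). Plasma protein and apolipoprotein genes lie lowest (18 lower, 1 higher) and immediate early genes highest (6 higher, none lower).

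The tissue label was checked against its markers. Those of hepatocytes summed to 51830 to 163200 CPM in FFPE and 245500 to 419000 CPM in FR > FFPE. Of 8 hepatocyte markers 4 were lower and none higher, but on total counts none was lower and 1 was higher. Of 5 pericentral markers 2 were lower and 1, dependent on FFPE to be tested, was higher, and on total counts 1 was lower and 1 higher. In bulk tissue, fewer cells of a type and less RNA per cell cannot be told apart. Lymphocyte markers had 4 of 6 higher and none lower, and 3 of the 4 depended on FFPE to be tested. Ptprc, the leukocyte antigen CD45, had 51.4 to 193 CPM in FFPE (median 79.3) and 10.8 to 35.7 CPM in FR > FFPE (log2 change 2.07 ± 0.34 SE, adjusted p = 6.22e-05). These 3 were the T cell genes Cd8a, Lck and Cd3g, with log2 changes of 2.88, 1.81 and 1.52. The 8 lymphocyte markers with a count summed to 165 to 502 CPM in FFPE and 51.8 to 189 CPM in FR > FFPE, which overlapped, and none had enough counts to be tested at equal depth. Neutrophil and cholangiocyte lists each had 1 of 4 higher, the antimicrobial gene Camp (1.61) and osteopontin, Spp1 (2.61), and both depended on FFPE to be tested. Of 4 endothelial markers and 5 periportal hepatocyte markers none was called. Of the periportal markers 2 passed the adjusted p alone, both lower, and of the endothelial markers none did.

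Within 1 cell type the markers did not move together. Of 5 Kupffer cell and macrophage markers 1 was higher and 2 were lower (1 lower without FFPE replicate 82 or FR > FFPE replicate 78), and on total counts 3 were higher and none lower. The 3 chains of complement C1q are made by the same macrophages and assemble into 1 complex. C1qa had 29.4 to 81.3 CPM in FFPE and 10.5 to 29.7 CPM in FR > FFPE and rose by 1.48 on the log2 scale (± 0.29 SE, adjusted p = 0.000406). C1qb had 80.1 to 271 CPM against 51.4 to 134 CPM and did not pass the test (log2 change 0.64 ± 0.31 SE, adjusted p = 0.0925). C1qc, the highest of the 3, had 270 to 433 CPM against 566 to 1181 CPM and fell by 1.24 on the log2 scale (± 0.22 SE, adjusted p = 0.000162). On total counts their log2 changes were 2.42, 1.59 and −0.32, as scaling moves all 3 nearly alike. The change fell as the level rose from C1qa to C1qc, which is the direction found over all genes. Markers of stellate cells, fibroblasts and vessel wall split likewise, with 5 of 9 lower (2 without FR > FFPE replicate 78) and 3 higher, and on total counts none was lower and 3 were higher. The 3 depended on FFPE, and 1 of the 5 on FR > FFPE, to be tested. The fibrillar collagen gene Col3a1 had 537 to 1071 CPM in FFPE against 1543 to 4527 CPM (log2 change −1.65 ± 0.26 SE, adjusted p = 4.94e-05). Col1a1, the other main fibrillar collagen of liver, was at 2.16 on 1 to 18 counts a library in FFPE. The number of these markers that was higher was 1 when any of FR > FFPE replicates 73 to 77 was left out. Of 3 erythroid markers 2 were lower. Hbb, beta globin of red blood cells, had 699 to 1117 CPM in FFPE and 2915 to 11264 CPM in FR > FFPE (log2 change −2.68 ± 0.30 SE, adjusted p = 2.35e-06). Hba-a2, its alpha partner, changed by −1.08, but by −0.73 without FR > FFPE replicate 73.

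At equal depth fewer genes could be compared. Thinning left 921 genes to test, with 113 higher (12.3%) and 66 lower (7.17%). Of the 56 genes higher at full depth that could still be tested 55 were higher, and of 170 lower genes 66 were lower. TMM was centred on the genes left, which moved changes upward. In the highest of the 10 groups by level all 215 genes remained, and their median went from −0.79 to −0.35. In the group at 213.5 to 540.6 CPM all 214 remained, and the median went from −0.57 to −0.11. Rises were thus all but bound to remain and many falls to miss the 2-fold limit. The 55 of 56 is no support for the rises, and the 66 of 170 is no evidence against the falls. Of 35 lists of genes or markers 34 lay on the same side of the median of all genes under 4 scalings, the respiratory chain being the exception. Scaling moves a list and the median of all genes nearly together, so this could hardly differ and is no support. After thinning 23 of 33 lay on the same side as at full depth. The 10 that changed sides then were the macrophage and endothelial markers and the heat shock, formaldehyde, initiation factor, proteasome, acute phase, cholesterol, gluconeogenesis and cytokine lists. Only a part of each of these lists could be tested after thinning. It was 2 of 8 formaldehyde, 4 of 31 cytokine and 14 of 17 gluconeogenesis genes. A change of side thus compares different sets of genes. Serping1 changed by −2.43, Cyp3a2 by −2.09, Gjb1 by 4.07 and Atf5 by 2.70 in the thinned fit.

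In mouse liver the same 2 routes were compared by sequencing of total RNA from purified RNA, with 12 libraries in each group from mice given vehicle or phenobarbital. Depth differed less there (4952796 to 6760426 counts in FFPE and 5534973 to 10681771 in FR > FFPE). In a fit with treatment as a term 39 of 12343 genes (0.316%) were DEGs, 26 higher (0.211%) and 13 lower (0.105%), and 3689 (29.9%) passed the adjusted p alone. Species, assay and extraction differ, so rat and mouse values are set side by side without a test. Of 276 genes that were higher in rat and tested in mouse, 160 had a mouse change above 0 (median log2 change 0.05), and of 184 that were lower in rat 143 had one below 0 (median −0.18). Over all 1598 shared symbols 654 were above 0 and 944 below 0 in mouse (median −0.05). The mouse log2 change was −0.60 for Alb, −0.51 for Serpinc1 and −0.60 for Rgn, the calcium-binding regucalcin, which was at −2.38 in rat. It was 0.89 for Atf5 (adjusted p = 4.03e-09), 0.22 for Gjb1 and −0.01 for Car3. For Rps27l it went the other way than in rat, to −1.03 (adjusted p = 8.63e-08).

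**Figure D5:**
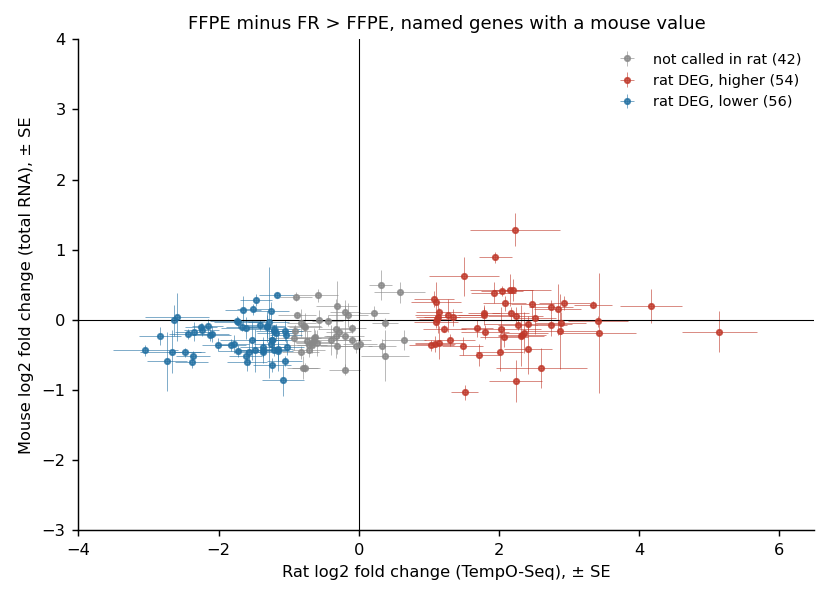
Log2 fold change of FFPE minus FR > FFPE in mouse liver (total RNA sequencing, vertical axis) against that in rat liver (TempO-Seq, horizontal axis) for genes of the naming rule with a value in both (54 higher, 56 lower and 42 not called in rat), with bars of 1 SE. Rat values reach from −3.04 to 5.14 while most mouse values lie close to 0.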

How the data were processed

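Rat liver lysates were profiled with the TempO-Seq s1500+ rat panel on a NextSeq 550. The deposited estimated counts list 28756 genes, of which 2630 had a count in the 12 libraries, and 297 of the genes tested held values that are not whole. Values were rounded to whole counts. A second deposited table holds log2 values of 2043 genes, which match log2(1 + CPM) of total counts. The submitters' processing notes name rn6, and its gene coordinates are those of the file. Aligner settings for the rat libraries are not given in the sources used here, and the study's text does not describe this rat experiment. Thresholds follow the study's criteria for its other data. Mouse values are the authors' estimated counts, rounded.

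Counts were tested with edgeR 4.0.16 (quasi-likelihood, TMM, filterByExpr) in R 4.3.3, with Benjamini-Hochberg adjustment. On simulated counts for 2144 genes, 97.5% of 200 genes changed 4-fold were recovered and 3.47% of calls were false. The simulation had as many rises as falls and no trend of change with level, unlike these data. It checks the code and gives no rate of false calls here. Library measures were compared with two-sided exact permutation tests in Python 3.11.15. Alternatives used DESeq2 1.42.0, limma 3.58.1, other scalings and filters, thinning (1 draw, seed 20), all 18 rat liver libraries and the omission of each library. No 2 libraries agreed within counting noise. Members and gene lists were chosen with earlier results of these data known. The text names the 12 largest rises and falls without overlap at 20 CPM or more, and per list up to 3 rises, 3 falls and the 2 highest genes. Listed genes whose call was lost without 1 library are left unnamed, other than Rela and Hba-a2, as are some others for brevity, and a few genes are not reported here. Probe sequences were not used here.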

Additional observations from a re-analysis of the deposited data

Results flagged for a closer look

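In 212 groups of 6 libraries, for the named genes and the library measures, the lowest or highest library was checked for its gap to the nearest library as a ratio of the group's range (log2 scale for genes), against the 95% critical value of Dixon's test. Chance flags about 1 in 20 such groups, and 19 of 212 were past it. FFPE replicate 82, the shallowest library, accounted for 10 of them. It had the lowest share of counts in the 10 highest genes (29.0%, ratio 0.627) and the lowest level of complement C3 (11760 CPM, 0.719), the fibrinogen chain Fga (14740 CPM, 0.773), the acid glycoprotein Orm1 (2648 CPM, 0.778) and Car3 (1036 CPM, 0.6254). It was also lowest in Ephx1 (196.7 CPM, 0.71), Slco1a1 (119.4 CPM, 0.629), Rela (91.3 CPM, 0.667) and Rps27a (920.3 CPM, 0.675), and highest in Mex3b (87.8 CPM, 0.773).

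FFPE replicate 79 was lowest in Eif2b3 (3.01 CPM, ratio 0.669), Lck (9.04 CPM, 0.666), Lcn2 (12.1 CPM, 0.792) and Nfkb1 (12.1 CPM, 0.645). FFPE replicate 83 was lowest in Gadd45b (12.6 CPM, 0.721) and the one FFPE library whose estimated count of LOC108348085 did not round to 0 (3.15 CPM), so that its ratio of 1 comes from rounding. In FR > FFPE, replicate 75 was highest in Mafk (143 CPM, 0.673), replicate 73 was highest in ENSRNOG00000056582 (1.67 CPM, 0.798), and replicate 76 was at 0 in Cxcl1 (0.722). These low values rest on few counts.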

How the results depend on the processing

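The split of DEGs depended on scaling and depth. The DEGs of both directions together numbered 179 after thinning. The 471 that were higher became 869 with limma on the deposited log2 values, 988 on total counts, 790 on totals without genes over 1% and 113 after thinning. The 233 that were lower became 27, 30, 58 and 66 in the same order. The 1050 genes past the adjusted p alone became 322 after thinning. Fewer genes could be tested then, and TMM was centred on those. The spread among replicates differed by −0.12 on the log2 scale after thinning (exact permutation p = 0.00216), and the cause was not tested. Leaving out 1 library gave 638 to 806 DEGs, 423 to 497 higher, 206 to 314 lower and 937 to 1112 past the adjusted p alone. Over the same omissions the differences ran from −3.16 to −2.63 for log2 total counts, from 440.5 to 584.5 for genes detected, from −8.38 to −5.79 percentage points for the 10 highest genes and from −0.0747 to 0.0223 for the spread, which crossed 0. Without 1 FR > FFPE library 1993 to 2044 genes passed the filter instead of 2144, and 438 of the 471 higher DEGs were among them. A call lost in those fits, also in the list counts above, may thus be a gene that was not tested. Without replicates 79 and 82, an omission chosen after seeing the data, 420 genes were higher and 183 lower. Fga turned to 0.38 with limma, 0.32 on total counts and 0.015 without genes over 1%, and Arg1 to 0.90, 0.74 and 0.52, and to 0.34 after thinning and 0.074 without FR > FFPE replicate 75, the highest of its values without 1 library (lowest −0.303).

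No paired analysis was possible because the 2 rat groups share no replicate numbers. In mouse, where same-numbered libraries deviated together in 12 of 12 pairs (r 0.288 to 0.575), a fit with the animal as replicate block called 45 genes (28 higher, 17 lower) against 39.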
